A study of Homo sapiens with 12 samples.

Results

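The results concern the mRNAs of 10 splicing factors that work beside SF3B1 at the branch point and the 3′ splice site of introns: SF1, U2AF2, U2AF1, PUF60, HTATSF1, DDX46, DHX15, SUGP1, RBM17 and CHERP. They were chosen by name for this role, and each name matched 1 row of the deposited count tables, so that 10 of 67049 rows were taken. All 10 passed the filter on low counts, which left 20394 genes for testing.

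RNA was sequenced from the cytoplasm and from the nuclei of HEK293T, an embryonic kidney cell line, 48 h after lipofection with a plasmid. It was pIRES2-SF3B1 with either the K700E substitution, which recurs in blood cancers, or the wild type (WT) sequence. There were 4 groups of 3 libraries: K700E cytoplasm, WT cytoplasm, K700E nucleus and WT nucleus. The title of the study names the export of mRNA from the nucleus. All groups were transfected with a plasmid encoding SF3B1, which adds to the SF3B1 genes of the cells. The counts do not show what share of the cells took it up. The groups used here come from 1 cell line and include none without a plasmid. Nothing in the labels ties the libraries of 1 group to separate dishes of cells, so p-values measure how far these libraries differ, a spread that could be technical.

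An intron is first marked at its 3′ end by SF1 on the branch-point sequence and by the U2AF pair, with U2AF2 on the pyrimidine tract and U2AF1 on the AG that ends the intron. The U2 snRNP, which contains SF3B1, then takes the place of SF1 and pairs with the branch point, helped by ATPases of the DEAD and DEAH families. Several proteins around SF3B1 carry a G-patch, a short motif through which such proteins activate the ATPase DHX15, and one of them, SUGP1, is known to bind K700E less well than WT SF3B1.

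Library totals lay between 13422598 and 18116929 counts in the cytoplasm and between 9086743 and 11200562 in the nucleus, and the 10 genes took 0.172% to 0.234% of them. The SF3B1 row, which does not part plasmid from endogenous transcripts, averaged 7904 ± 879.5 CPM (a share of the library's counts, scaled by the TMM method) in K700E cytoplasm and 9408 ± 1058 CPM in WT cytoplasm, against 1596 ± 498 CPM in K700E nuclei and 1573 ± 782 CPM in WT nuclei (SD, n = 3 each). MALAT1 and NEAT1, which stay in the nucleus, reached at most 83.7 and 50.8 CPM in the cytoplasmic libraries and at least 1666 and 594 CPM in the nuclear ones. The 13 mitochondrial mRNAs summed to 4462 to 18737 CPM in the cytoplasm and to 905 to 1241 CPM in the nucleus. Of 8 genes reported in this line, among them VIM and EYA1, all had counts in all 12 libraries, with LHX1 under 1.00 CPM throughout. Of the markers of other cells given here, CD3E had no count, PTPRC, SPI1, HBB and DCN reached at most 0.612 CPM, COL3A1 reached 3.50 CPM and COL1A1 reached 111 CPM. Values in the 2 libraries numbered 2 of the nuclear groups ran with the GC content of genes, with slopes of -0.35 log2 units per 10 points of GC in K700E nucleus 2 and 0.45 in WT nucleus 2, while the other 4 nuclear libraries lay between -0.06 and 0.01. Slopes here and below were taken against the mean of the libraries of the same fraction.

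The row of U2AF1 was the most biased to the nucleus among the members, and the annotation holds an almost identical copy of the gene. Gene IDs are those of the count tables, and positions here and below are those of GENCODE 29 on GRCh38, since the build behind the counts is not given. U2AF1 (ENSG00000160201.12, chromosome 21, 43092956 to 43107587, minus strand, GRCh38) lies on the same chromosome as U2AF1L5 (6484623 to 6499261, minus strand). A pair of their coding transcripts was identical over all 897 bases that aligned, while 65 bases of the U2AF1 transcript did not align. Another coding pair differed at 1 of 1019 bases, A20C, counted from the first base of the U2AF1 transcript, ahead of the coding sequence. A pair of longer forms with retained introns differed by 4 substitutions in 3337 aligned bases, and by gaps of 2 bases in the U2AF1 form and 7 in the copy. The substitutions were A816G, A997G, A1155G and C1922T, counted from the first base of the U2AF1 form. None of these 4 bases lies in an exon of any of the 4 coding transcripts of U2AF1. Of all stretches of 100 bases, 87.3% to 99.2% in each coding transcript of U2AF1, and 74.8% to 100% in each retained-intron transcript, also occur in the copy. The windows below, of 29 bases each from GENCODE 29 transcripts, hold the differing base in capitals at its centre, for some of these substitutions.
U2AF1 around A20C, chr21:43107545-43107573: ggtgacgtctcccgAgggcgtcggcaggg
U2AF1L5 around A20C, chr21:6499223-6499251: ggtgacgtctcccgCgggcgtcggcaggg
U2AF1 around A816G, chr21:43095561-43095589: aatgacactttgtaAtgtataacgagtct
U2AF1L5 around A816G, chr21:6487230-6487258: aatgacactttgtaGtgtataacgagtct
U2AF1 around A997G, chr21:43095380-43095408: ccgcttagtgtgccAgggccaaggccaac
U2AF1L5 around A997G, chr21:6487049-6487077: ccgcttagtgtgccGgggccaaggccaac

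The U2AF1 row had 5.29, 9.57 and 8.95 CPM in K700E cytoplasm and 7.72, 15.6 and 8.54 CPM in WT cytoplasm, against 57.1, 69.9 and 70.7 CPM in K700E nuclei and 54.8, 49.5 and 66.4 CPM in WT nuclei. Every cytoplasmic library lay below every nuclear one, with 62 to 188 counts in the cytoplasm and 566 to 813 in the nucleus. The row was 8.28-fold lower in the cytoplasm with K700E (-3.05 ± 0.30 as log2 fold change ± SE over 3 libraries a group, edgeR adjusted p = 4.45e-07) and 5.36-fold lower with WT (-2.42 ± 0.30, edgeR adjusted p = 3.37e-06). The U2AF1L5 row had 11.9, 7.18 and 14.6 CPM in K700E cytoplasm and 11.3, 10.3 and 17.1 CPM in WT cytoplasm, against 23.4, 32.7 and 22.9 CPM in K700E nuclei and 22.0, 25.9 and 24.9 CPM in WT nuclei. It too was lower in each cytoplasmic library than in any nuclear one, by 1.23 ± 0.29 on the log2 scale with K700E (edgeR adjusted p = 0.00165) and by 0.91 ± 0.29 with WT (edgeR adjusted p = 0.0115). With the counts of both rows summed, the cytoplasm remained lower, by -2.27 ± 0.23 with K700E (edgeR adjusted p = 4.31e-07) and -1.79 ± 0.22 with WT (edgeR adjusted p = 3.93e-06).

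The U2AF1 row took 42.0% ± 13.6 of the counts on both rows in K700E cytoplasm and 44.7% ± 13.96 in WT cytoplasm, against 71.5% ± 3.77 in K700E nuclei and 69.9% ± 3.75 in WT nuclei (SD, n = 3 each). The highest cytoplasmic share, 60.3% in WT cytoplasm 2, lay below the lowest nuclear share, 65.7% in WT nucleus 2. How reads common to both copies were assigned is not given in the sources used here, so neither row can be read as the level of 1 gene. Their sum lacks any reads that were counted on neither row. Whether these cells hold U2AF1L5 as a separate gene was not tested.

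**Figure D1:**
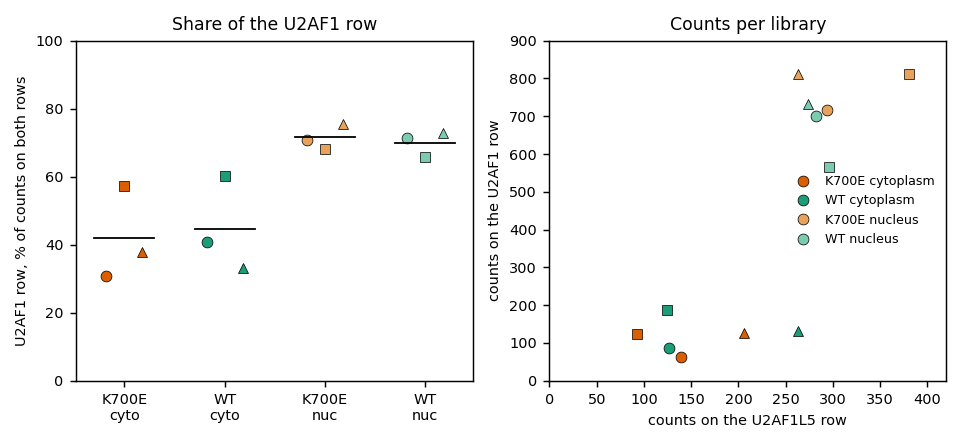
Share of the U2AF1 row in the counts on the U2AF1 and U2AF1L5 rows (left, percent, points for libraries and lines for means of 3) and the counts themselves in each of 12 libraries (right; circles, squares and triangles are libraries 1, 2 and 3). The cytoplasmic libraries sit at 62 to 188 counts on the U2AF1 row and the nuclear ones at 566 to 813.

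In the cytoplasm against the nucleus, 6 members passed the test in the same direction with both constructs: SF1, U2AF2, HTATSF1, PUF60 and CHERP were higher in the cytoplasm and U2AF1 lower. With K700E, 8 of 10 members differed at an adjusted p under 0.05, 5 higher and 3 lower, where 65.9% of all genes tested did so, 28.1% higher and 37.9% lower. With WT, 7 of 10 did, 5 higher and 2 lower, where 67.1% of all genes did, 27.1% higher and 40.0% lower. The libraries of the fractions did not overlap for 6 members with K700E, where 70.7% of all genes did not, and for 7 with WT, where 70.1% did not. The shares of members without overlap, and the share that differed with WT, were thus close to the background. The share called higher was above that of all genes with both constructs, with no test of that difference. Among protein-coding genes, the kind the members belong to, 36.5% were higher and 27.4% lower with K700E. With WT, 35.4% of protein-coding genes were higher and 29.5% lower. The median log2 fold change over the 10 members was 0.42 with K700E and 0.61 with WT, beside -0.29 and -0.40 over all genes and 0.19 and 0.13 over protein-coding genes. These are differences in shares of a library: the RNA content of either fraction was not measured, and fewer cells or less RNA per cell cannot be told apart in bulk RNA. Scaling by library size alone moved the median of all genes by -0.41 with K700E and -0.51 with WT, and then 3 members were higher and 4 lower with K700E, and 2 higher and 4 lower with WT. Over all genes that scaling gave 4225 higher and 9448 lower with K700E and 3789 higher and 10246 lower with WT, instead of 5723 and 7725 with K700E and 5517 and 8164 with WT. Upper quartile factors left 3 members higher and 3 lower with K700E and 4 higher and 4 lower with WT.

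**Figure D2:**
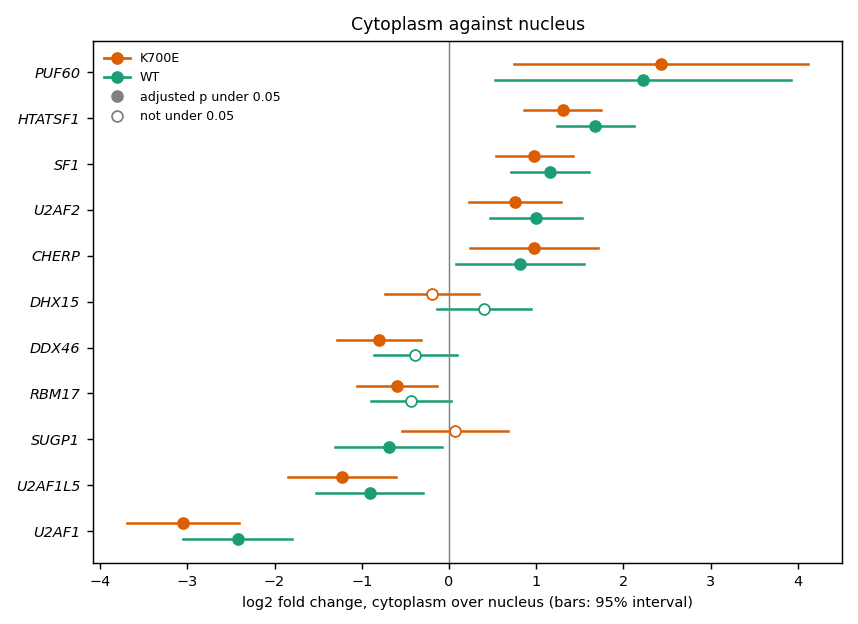
Log2 fold change of each member and of U2AF1L5, cytoplasm over nucleus, with 95% intervals, for K700E (above) and WT (below); filled points passed an edgeR adjusted p under 0.05. Points run from 2.43 (PUF60) to -3.05 (U2AF1) with K700E and from 2.22 to -2.42 for the same genes with WT.

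The first proteins on the intron were SF1 and U2AF2, whose mRNAs were both higher in the cytoplasm. SF1, the branch-point binding protein (ENSG00000168066.21, chromosome 11, 64764606 to 64778786, minus strand), had 378, 370.3 and 496 CPM in K700E cytoplasm and 562, 506 and 547 CPM in WT cytoplasm, against 236, 189.8 and 205 CPM in K700E nuclei and 269, 269.9 and 183 CPM in WT nuclei. All cytoplasmic libraries stood above all nuclear ones. SF1 was 1.97-fold higher in the cytoplasm with K700E (0.98 ± 0.21, edgeR adjusted p = 0.00073) and 2.24-fold higher with WT (1.16 ± 0.21, edgeR adjusted p = 0.000168).

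U2AF2, the large U2AF subunit that binds the pyrimidine tract (ENSG00000063244.13, chromosome 19, 55654146 to 55674715, plus strand), had 232, 267 and 442 CPM in K700E cytoplasm and 398, 362 and 519.5 CPM in WT cytoplasm, against 187, 194 and 176 CPM in K700E nuclei and 199.6, 261 and 178 CPM in WT nuclei. Within each construct the fractions did not overlap, and library 3 was the highest of each cytoplasmic group. U2AF2 was 1.69-fold higher in the cytoplasm with K700E (0.76 ± 0.25, edgeR adjusted p = 0.0134) and 2.0-fold higher with WT (1.00 ± 0.25, edgeR adjusted p = 0.00218). The call with K700E was lost without K700E cytoplasm 3 (0.47, edgeR adjusted p = 0.102), and with library size alone as scaling it was lost with both constructs. With K700E it was lost in 4 of 25 other settings, also with upper quartile factors and with a minimum of 1 CPM in all libraries. The slope with GC content was 0.23 log2 units per 10 points in K700E cytoplasm 3 and 0.17 in WT cytoplasm 3, against -0.15 to -0.04 in the other cytoplasmic libraries. After GC correction, which also removes GC trends between the fractions, U2AF2 was at 0.76 with K700E and 1.48 with WT. The rows of U2AF1 and U2AF2, whose proteins form a dimer, lay on opposite sides of the fraction comparison. For U2AF1 this holds for the row and not surely for its mRNA, since the assignment of reads shared with U2AF1L5 is not given.

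PUF60, a relative of U2AF2 that also binds pyrimidine tracts (ENSG00000179950.14, chromosome 8, 143816344 to 143829859, minus strand), was sparsely counted. It had 20.9, 5.95 and 36.3 CPM in K700E cytoplasm and 21.3, 6.38 and 22.0 CPM in WT cytoplasm, against 9.08, 0.431 and 2.09 CPM in K700E nuclei and 1.09, 5.42 and 4.17 CPM in WT nuclei, on 5 to 511 counts a library. With K700E the lowest cytoplasmic library lay below the highest nuclear one, whereas with WT the fractions did not overlap. PUF60 was 5.40-fold higher in the cytoplasm with K700E (2.43 ± 0.80, edgeR adjusted p = 0.0135) and 4.67-fold higher with WT (2.22 ± 0.80, edgeR adjusted p = 0.0217). Its adjusted p ended above 0.05 without K700E cytoplasm 3 or K700E nucleus 3 (0.0642 and 0.0552) and without WT nucleus 1, WT cytoplasm 1 or WT cytoplasm 3 (0.0551 to 0.0574), and with a block for the replicate number (WT, 0.0536). The call with WT was lost in 6 of 24 other settings, also with library size alone and with DESeq2's Wald test. Whether reads of PUF60 were lost in alignment or counting was not tested, so its low level, here and below, is that of the row.

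The mRNAs of HTATSF1 and DDX46, whose proteins act on the U2 snRNP itself, lay on opposite sides. HTATSF1, the human counterpart of yeast Cus2, binds SF3B1 before the U2 snRNP settles on the branch point, and DDX46, the counterpart of yeast Prp5, is the ATPase that acts at that step. HTATSF1 (ENSG00000102241.12, chromosome X, 136497079 to 136512346, plus strand) had 348, 338 and 276 CPM in K700E cytoplasm and 358, 342 and 309.5 CPM in WT cytoplasm, against 129, 137 and 124 CPM in K700E nuclei and 125, 78.5 and 112 CPM in WT nuclei. All cytoplasmic libraries stood well above all nuclear ones. HTATSF1 was 2.47-fold higher in the cytoplasm with K700E (1.30 ± 0.21, edgeR adjusted p = 4.87e-05) and 3.20-fold higher with WT (1.68 ± 0.21, edgeR adjusted p = 4.18e-06).

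DDX46 (ENSG00000145833.16, chromosome 5, 134758771 to 134855133, plus strand) had 376, 364 and 293 CPM in K700E cytoplasm and 408, 373 and 327 CPM in WT cytoplasm, against 463, 764 and 575 CPM in K700E nuclei and 442, 409.5 and 597 CPM in WT nuclei. Every cytoplasmic library was below every nuclear one, by a narrow margin between WT cytoplasm 1 and WT nucleus 2. DDX46 was 1.74-fold lower in the cytoplasm with K700E (-0.80 ± 0.23, edgeR adjusted p = 0.00545), and its value with WT was -0.39 ± 0.23 (edgeR adjusted p = 0.14). After correction of each library for its trend with GC content the value with K700E was -0.11 (edgeR adjusted p = 0.55), and with library size alone as scaling the value with WT was -0.90 (edgeR adjusted p = 0.00127). The difference between the constructs' ratios was -0.42 ± 0.32 (edgeR adjusted p = 0.98).

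Of the G-patch proteins SUGP1, RBM17 and CHERP and the ATPase DHX15, CHERP passed the test between the fractions with both constructs, SUGP1 and RBM17 with 1 construct each, and DHX15 with neither. SUGP1 (ENSG00000105705.16, chromosome 19, 19276018 to 19320844, minus strand) had 44.3, 48.6 and 74.6 CPM in K700E cytoplasm and 53.8, 55.1 and 63.4 CPM in WT cytoplasm, against 51.8, 41.5 and 66.0 CPM in K700E nuclei and 60.5, 137 and 80.5 CPM in WT nuclei. The fractions overlapped with both constructs, and WT nucleus 2 stood above all other libraries. SUGP1 was 1.61-fold lower in the cytoplasm with WT (-0.69 ± 0.29, edgeR adjusted p = 0.0438), and its value with K700E was 0.07 ± 0.29 (edgeR adjusted p = 0.835). Without WT nucleus 2 the value with WT was -0.25 (edgeR adjusted p = 0.414), and that call was lost in 15 of 25 other settings. Among these were all 3 cases without 1 WT cytoplasm library, the one without WT nucleus 3, and those without K700E nucleus 1 or 3 or K700E cytoplasm 1 or 2, at values of -0.75 to -0.63.

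RBM17, also called SPF45, which contacts SF3B1 through a U2AF-like domain (ENSG00000134453.16, chromosome 10, 6088987 to 6117457, plus strand), had 174, 179 and 152 CPM in K700E cytoplasm and 189, 191 and 163 CPM in WT cytoplasm, against 268, 267 and 225 CPM in K700E nuclei and 297, 169 and 269 CPM in WT nuclei. The fractions were apart with K700E and overlapped with WT, where WT nucleus 2 fell among the cytoplasmic values. RBM17 was 1.51-fold lower in the cytoplasm with K700E (-0.59 ± 0.22, edgeR adjusted p = 0.0242), and its value with WT was -0.44 ± 0.22 (edgeR adjusted p = 0.0832). Without K700E nucleus 1, K700E nucleus 2, K700E cytoplasm 1 or K700E cytoplasm 3 the first call was lost (-0.60 to -0.48, adjusted p 0.0555 to 0.111). It was also lost after GC correction (-0.16) and without a filter on low counts. Without WT nucleus 2 the value with WT became a call (-0.60, edgeR adjusted p = 0.0108). It became a call in 6 of 25 other settings, also with library size alone and upper quartile factors, and reached -0.94.

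CHERP, a U2-associated protein with a G-patch (ENSG00000085872.15, chromosome 19, 16517889 to 16542530, minus strand), had 44.0, 62.1 and 124 CPM in K700E cytoplasm and 80.1, 72.8 and 121 CPM in WT cytoplasm, against 49.2, 28.3 and 39.8 CPM in K700E nuclei and 50.8, 68.6 and 36.7 CPM in WT nuclei. Library 3 was the highest of both cytoplasmic groups, and the fractions overlapped with K700E. CHERP was 1.96-fold higher in the cytoplasm with K700E (0.97 ± 0.35, edgeR adjusted p = 0.0215) and 1.76-fold higher with WT (0.82 ± 0.35, edgeR adjusted p = 0.0471). The call with K700E was lost without K700E cytoplasm 3 (0.48) or K700E nucleus 2 (0.80), and the one with WT without WT nucleus 1 or 3 or WT cytoplasm 1 or 3 (0.57 to 0.92) and with a block for the replicate number (0.74, edgeR adjusted p = 0.0715). In all, the call was lost in 6 of 25 other settings with K700E and in 10 of 25 with WT. With both constructs these included library size alone, upper quartile factors and a minimum of 1 CPM in all libraries. The lowest values were 0.48 with K700E and 0.30 with WT. After GC correction CHERP was at 0.98 with K700E and 1.30 with WT, both past the threshold. Of the bases in the merged exons of CHERP, 19.7% overlap other genes in GENCODE 29, including 16.7% under C19orf44 on the other strand, and whether strand was used in counting is not given in the sources used here. For SUGP1, U2AF2 and DDX46 the overlap was 2.56% to 3.06%, and for the other members it was 0.

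DHX15, the counterpart of yeast Prp43 (ENSG00000109606.13, chromosome 4, 24517441 to 24584550, minus strand), had 373, 365 and 329 CPM in K700E cytoplasm and 401, 368 and 388 CPM in WT cytoplasm, against 377, 528 and 316 CPM in K700E nuclei and 398, 185 and 292 CPM in WT nuclei. The cytoplasmic values were close together, and the nuclear ones spread around them. The difference between the fractions was -0.19 ± 0.25 with K700E (edgeR adjusted p = 0.515) and 0.40 ± 0.25 with WT (edgeR adjusted p = 0.172). After GC correction it was 0.86 with K700E and 1.20 with WT (edgeR adjusted p = 0.000259 and 9.6e-06), and without WT nucleus 1 it was 0.75 with WT (edgeR adjusted p = 0.0162). With library size alone as scaling DHX15 was called lower in the cytoplasm with K700E, and the difference with WT was -0.10. Over 25 other settings the difference ran from -0.59 to 0.86 with K700E and from -0.10 to 1.20 with WT.

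**Figure D3:**
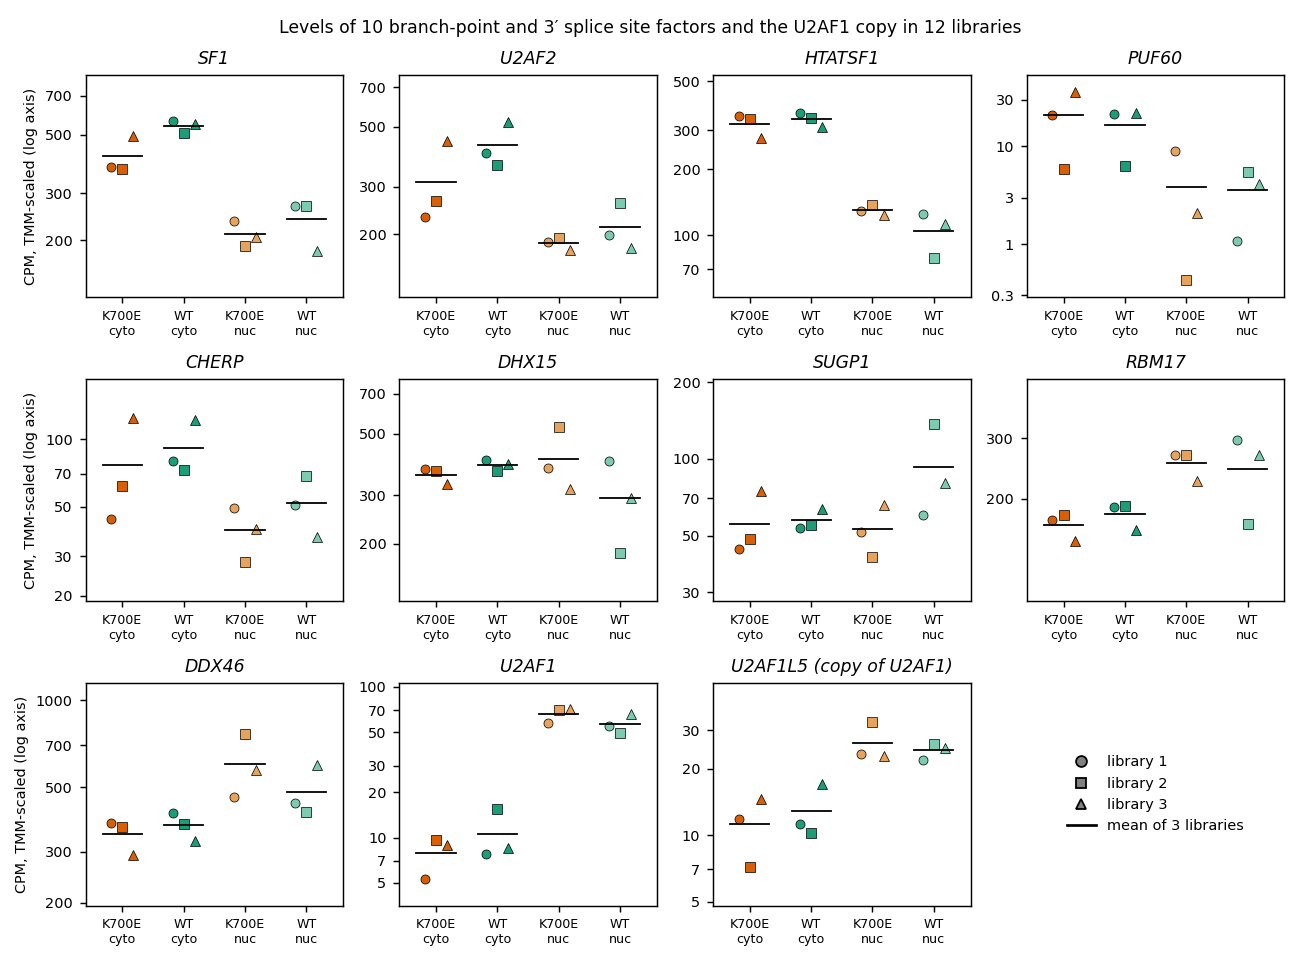
TMM-scaled CPM on log axes of the 10 members and U2AF1L5 in each of 12 libraries, by group; circles, squares and triangles are libraries 1, 2 and 3, and lines are group means. U2AF1 lies at 5.29 to 15.6 CPM in the cytoplasm and 49.5 to 70.7 CPM in the nucleus, and SUGP1 in WT nucleus 2 stands at 137 CPM.

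Levels were set against each other as mean CPM per kilobase of the longest coding transcript. In K700E cytoplasm the order was SF1 at 119, DHX15 at 119, HTATSF1 at 106, U2AF2 at 104, DDX46 at 60.5, RBM17 at 44.8, SUGP1 at 23.0, CHERP at 18.4, PUF60 at 8.73 and U2AF1 at 4.74 CPM per kb. The first 4 of these overlapped from one to the next, as did the last 4, from SUGP1 to U2AF1. In WT cytoplasm the order was SF1 at 155, U2AF2 at 141, DHX15 at 129, HTATSF1 at 111, DDX46 at 64.9, RBM17 at 48.2, SUGP1 at 23.7, CHERP at 21.9, PUF60 at 6.87 and U2AF1 at 6.34 CPM per kb, and the neighbours that overlapped were SF1 and U2AF2, U2AF2 and DHX15, SUGP1 and CHERP, and PUF60 and U2AF1.

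In the nuclei the U2AF1 row moved up in that order and HTATSF1 down. In K700E nuclei DHX15 stood at 136, DDX46 at 106, RBM17 at 67.5, U2AF2 at 61.4, SF1 at 60.6, HTATSF1 at 43.0, U2AF1 at 39.4, SUGP1 at 21.9, CHERP at 9.37 and PUF60 at 1.60 CPM per kb. In WT nuclei DHX15 stood at 97.4, DDX46 at 84.9, U2AF2 at 70.5, SF1 at 69.3, RBM17 at 65.3, SUGP1 at 38.3, HTATSF1 at 34.8, U2AF1 at 34.0, CHERP at 12.5 and PUF60 at 1.48 CPM per kb, and each of the first 8 overlapped its neighbour. In K700E nuclei the neighbours that overlapped were DHX15 and DDX46, RBM17 and U2AF2, U2AF2 and SF1, and HTATSF1 and U2AF1. Retained-intron forms make the merged exons of U2AF1 much longer than any coding transcript, and per kb of merged exons U2AF1 had 5.93 CPM in K700E nuclei and 5.12 CPM in WT nuclei, below all members but PUF60.

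**Figure D4:**
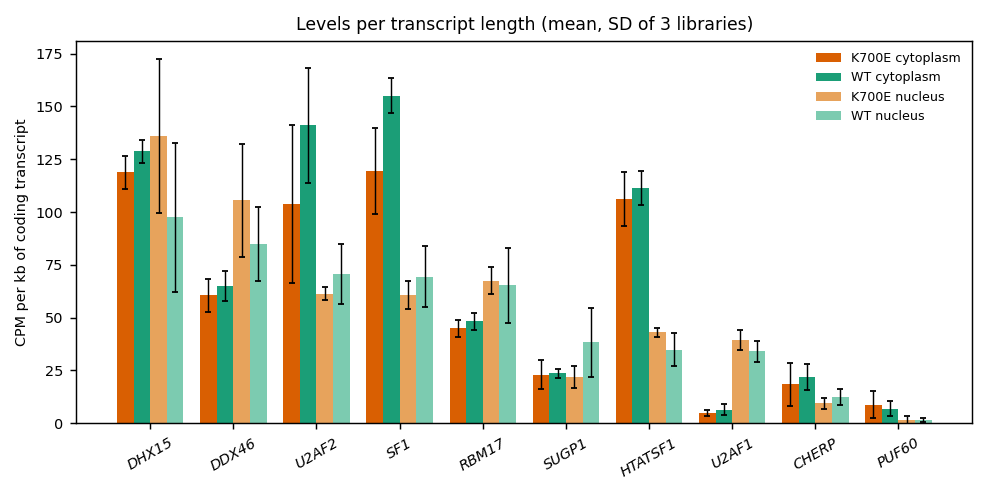
Mean CPM per kilobase of the longest coding transcript for 10 members in 4 groups, with SD of 3 libraries. SF1 reaches 119 in K700E cytoplasm and 155 in WT cytoplasm, and PUF60 stays at 1.60 in K700E nuclei and 1.48 in WT nuclei.

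K700E against WT was the comparison that carries the mutation, and no member passed the test in either fraction. In the nucleus 0 of 10 members had an edgeR adjusted p under 0.05, as had 0% of all genes tested, and at an unadjusted p under 0.05 there was 1 member, SUGP1, where 6.81% of all genes passed (1389 genes). DESeq2 and limma voom also called 0 members. For no member were the 3 K700E nuclear libraries all above or all below the 3 WT ones, which held for 8.79% of all genes.

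SUGP1 had the largest nuclear difference among the members, with 51.8, 41.5 and 66.0 CPM in K700E nuclei against 60.5, 137 and 80.5 CPM in WT nuclei, so that K700E nucleus 3 lay above WT nucleus 1. Its log2 fold change was -0.81 ± 0.29 (95% interval -1.42 to -0.19, edgeR unadjusted p = 0.013, adjusted p = 0.659). Without WT nucleus 2 it was -0.41 (adjusted p = 1 by edgeR), without both libraries numbered 2 of the nucleus -0.25 and after GC correction -0.45. The adjusted p ranged from 0.233 to 1 over 24 other settings.

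DHX15, the ATPase that SUGP1 activates, had 377, 528 and 316 CPM in K700E nuclei against 398, 185 and 292 CPM in WT nuclei, a log2 fold change of 0.48 ± 0.26 (95% interval -0.06 to 1.02, edgeR adjusted p = 0.659). It was 0.24 without WT nucleus 2, 0.25 without K700E nucleus 2, 0.01 without both and 0.13 after GC correction. For SUGP1 and DHX15 alike the extreme values came from the libraries numbered 2.

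The other 8 members had nuclear log2 fold changes between -0.41 (CHERP) and 0.32 (DDX46), all with edgeR adjusted p of 0.671 or more. HTATSF1 stood at 0.31 ± 0.20, U2AF1 at 0.21 ± 0.28, U2AF2 at -0.20 ± 0.25, SF1 at -0.19 ± 0.21, PUF60 at 0.14 ± 0.81 and RBM17 at 0.05 ± 0.22. The widest interval was that of PUF60, -1.57 to 1.84, which leaves more than a doubling in either direction within reach, whereas for RBM17 it ran from -0.41 to 0.51. By the GC content of their longest transcripts, SUGP1, SF1, U2AF2, CHERP and PUF60 (57.6% to 62.6%) had values of -0.81 to 0.14, and HTATSF1, U2AF1, RBM17, DDX46 and DHX15 (35.2% to 46.7%) had values of 0.05 to 0.48. The GC slopes of the nuclear libraries are given above, and after GC correction the 10 members lay between -0.45 (SUGP1) and 0.53 (PUF60).

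**Figure D5:**
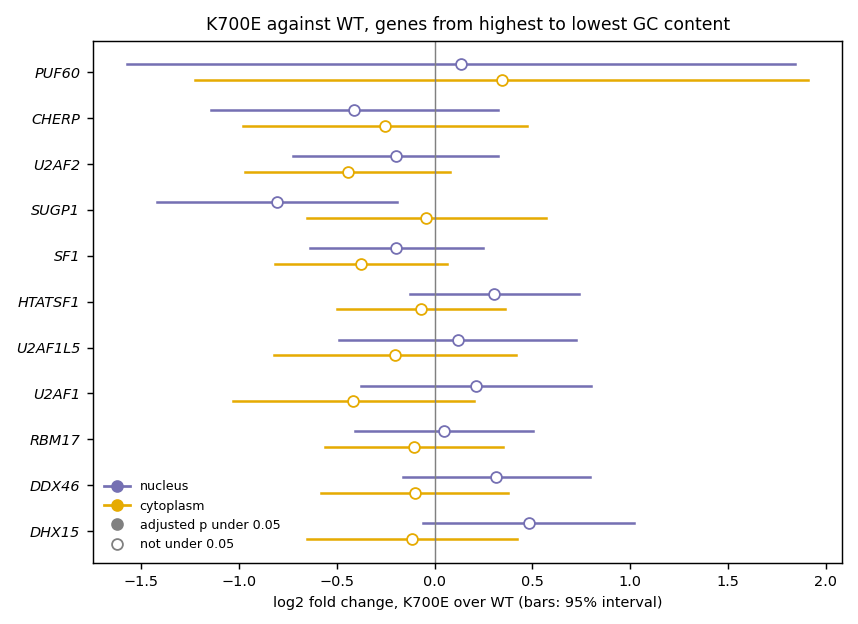
Log2 fold change of K700E over WT with 95% intervals for each member and U2AF1L5, in the nucleus (above) and the cytoplasm (below), ordered from PUF60 with the highest GC content of transcripts to DHX15 with the lowest. No point passed an edgeR adjusted p under 0.05; in the nucleus SUGP1 lies at -0.81 and DHX15 at 0.48.

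In the cytoplasm 0 of 10 members were called by edgeR, where 0.00490% of all genes were (1 gene), and 0 members had an unadjusted p under 0.05, where 4.56% of all genes did. DESeq2 and limma voom called 0 members too. The values ran from -0.44 to 0.34 and were below 0 for 9 members. The most negative were U2AF2 at -0.44 ± 0.25 (95% interval -0.97 to 0.08), U2AF1 at -0.41 ± 0.29 and SF1 at -0.38 ± 0.21 (-0.82 to 0.06), and all 10 had an edgeR adjusted p of 1. For SF1 the 3 K700E libraries, 378, 370.3 and 496 CPM, all lay below the 3 WT libraries, 562, 506 and 547 CPM, the only member for which the groups did not overlap, where 13.6% of all genes did not. SUGP1 and DHX15 had cytoplasmic values of -0.04 ± 0.29 and -0.12 ± 0.25.

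The ratio of cytoplasm to nucleus was compared between K700E and WT by an interaction term, which asks whether the construct changed the distribution of an mRNA. With edgeR 0 of 10 members passed, as did 0% of all genes, and 0 members had an unadjusted p under 0.05, where 3.30% of all genes did (672 genes); DESeq2 and limma voom called 0 members. The largest values were those of SUGP1 at 0.76 ± 0.41 (95% interval -0.10 to 1.63), U2AF1 at -0.63 ± 0.40 (-1.48 to 0.23) and DHX15 at -0.60 ± 0.36 (-1.36 to 0.16). All edgeR adjusted p-values were at least 0.98. The calls of SUGP1 with WT and of DDX46 and RBM17 with K700E, each made with 1 construct, were therefore not shown to differ between constructs. Without WT nucleus 2 the value of SUGP1 was 0.37 and that of DHX15 -0.36.

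Related genes from lists of the same pathway were counted in the same fits. Beside the counts below, 28.1% of all genes were called higher and 37.9% lower in the cytoplasm with K700E, and 27.1% and 40.0% with WT. Among protein-coding genes these shares were 36.5% and 27.4% with K700E, and 35.4% and 29.5% with WT. No list was tested against these shares. Of 14 other U2 snRNP and SF3 proteins, 10 stood higher and 2 lower in the cytoplasm with K700E, and 10 higher and 2 lower with WT, with list medians of 1.22 with K700E and 1.34 with WT. SF3A1, a subunit of SF3a, was at 2.66 ± 0.21 with K700E and 2.61 ± 0.21 with WT, and PHF5A, a small SF3b subunit that lines the branch-point pocket, at 2.48 ± 0.26 with K700E and 2.90 ± 0.27 with WT. U2SURP, which like CHERP and SUGP1 carries a SURP motif, was lower in the cytoplasm, at -1.33 ± 0.24 with K700E and -0.84 ± 0.24 with WT, and so was the ATPase DDX42, at -0.88 ± 0.21 with K700E and -0.48 ± 0.20 with WT.

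Of 10 copies and paralogs of members 6 were tested, and 3 were lower with K700E and 4 with WT, while none was higher. RBM39, a relative of U2AF2, had -1.74 ± 0.22 with K700E and -1.25 ± 0.22 with WT. SUGP2, a paralog of SUGP1, had -0.53 ± 0.22 with both constructs. U2AF1L4, a paralog of U2AF1, was lower with WT (-1.46 ± 0.40), and its value with K700E was -0.76 ± 0.40. ZRSR2, a U2AF1 relative that serves the minor spliceosome, had -0.14 ± 0.21 with K700E and -0.18 ± 0.21 with WT, and RBM23, a relative of RBM39, 0.06 ± 0.22 with K700E and 0.07 ± 0.22 with WT, none of them past the test.

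Among 17 other G-patch genes, 5 stood higher and 5 lower in the cytoplasm with K700E, and 6 higher and 4 lower with WT. RBM5, a splicing repressor, was at -3.16 ± 0.24 with K700E and -2.88 ± 0.24 with WT, and its relative RBM6 at -2.47 ± 0.23 with K700E and -2.12 ± 0.23 with WT. GPKOW, which works with the ATPase DHX16, was at 1.98 ± 0.33 with K700E and 1.45 ± 0.32 with WT, and TFIP11, the G-patch partner of DHX15 in spliceosome release, at 0.75 ± 0.21 with K700E and 1.14 ± 0.21 with WT. Of 10 other spliceosomal helicase and GTPase genes tested, 3 were higher and 3 lower with K700E, and 4 higher and 3 lower with WT, among them DHX8 at 1.10 ± 0.20 with K700E and 1.13 ± 0.20 with WT, and DDX41 at -0.66 ± 0.25 with K700E and -0.98 ± 0.25 with WT.

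Of 16 other factors that act on the 3′ splice site and branch point, 9 stood higher and 4 lower in the cytoplasm with K700E, and 9 higher and 1 lower with WT. HNRNPC, which competes with U2AF2 for uridine tracts, was at 2.19 ± 0.22 with K700E and 2.37 ± 0.22 with WT. UHMK1, a kinase that phosphorylates SF1, was lower with K700E, at -1.46 ± 0.35, and its value with WT was -0.45 ± 0.35 (edgeR adjusted p = 0.261). The interaction for UHMK1 was -1.01 ± 0.49 (edgeR adjusted p = 0.98), so the constructs were not shown to differ. In K700E against WT 0 genes of these 5 lists were called by edgeR in either fraction, and 0 in the interaction. The few genes with an unadjusted p under 0.05, named after their values were seen, were 1 of 14 U2 snRNP and SF3 genes (SF3B4) and 2 of 17 G-patch genes (RBM10 and GPKOW) in the nucleus. In the cytoplasm they were 1 of 17 G-patch genes (TFIP11), 1 of 10 helicase and GTPase genes (DDX23) and 2 of 16 genes of the last list (SRSF1 and SRSF2), and in the interaction the same 2 of 16, SRSF1 at -1.48 ± 0.46 and SRSF2 at -1.03 ± 0.44. Over all genes such p-values made up 6.81% in the nucleus, 4.56% in the cytoplasm and 3.30% in the interaction.

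Profiles most like that of SUGP1 over the 12 libraries were sought among 10959 protein-coding genes that averaged 5 CPM or more, by the root mean square distance between log2 CPM after centring each gene. The nearest were CABIN1 at 0.098, IL4R at 0.139, P3H4 at 0.153, CTBP1 at 0.153 and CHST12 at 0.165 log2 units. Nearest to DHX15 were ZNF24 at 0.0906, NUP58 at 0.0969, PRKD3 at 0.102, FBXO3 at 0.115 and ORC4 at 0.115 log2 units. For the 5 genes nearest to SUGP1 the nuclear log2 fold changes of K700E over WT lay between -0.76 and -0.63, and for the 5 nearest to DHX15 between 0.36 and 0.55, values that the choice by likeness used.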

How the data were processed

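The authors deposited raw counts of reads per gene, 1 table per library, for 12 libraries made with NEBNext Ultra kits from Trizol extracts. HISAT2 and DESeq are named without versions, per the submitters' processing notes. Not given in the sources used here: the counting program, its use of strand, the genome build and the annotation. Rows carry Ensembl IDs, of which 58487 of 67049 matched a symbol; rows without one held 0.235% of counts and were kept. IDs were matched without version to GENCODE 29 (GRCh38), which gave positions, lengths and GC content for 58440 rows.

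Groups were construct by fraction, 3 libraries each. Counts of all 12 libraries were fitted in R 4.3.3 with edgeR 4.0.16 (TMM factors, filterByExpr with minimum count 10 and minimum total 15, 1 term per group, quasi-likelihood F tests), and p-values were adjusted by Benjamini-Hochberg over 20394 genes, with 0.05 as the threshold. The prior count was 2, and the biological coefficient of variation was 0.306. The 5 comparisons were cytoplasm against nucleus within each construct, K700E against WT within each fraction, and the interaction. Comparisons that share libraries are not independent. All 10 members are named in every comparison, and from each list at most 3 genes called each way with the smallest p. Members and lists were chosen with earlier results of these data known. Alternatives were DESeq2 1.42.0, limma 3.58.1 voom, other scalings and filters, a correction of each library for its GC trend (lowess, span 0.5), only the libraries compared, replicate blocks and each library left out. The GC trend of a library was taken against the mean of all 12 libraries, so GC trends between the fractions were removed too. Summing U2AF1 with U2AF1L5 and leaving out the 2 libraries with the steepest GC trend were added after the data were seen. The pipeline was tested on simulated counts. Of the genes the rule would name, 1 list gene and 1 marker are not reported here.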

Additional observations from a re-analysis of the deposited data

How the results depend on the processing

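SF1 and HTATSF1 (higher) and U2AF1 (lower in the cytoplasm) stayed past the threshold with both constructs under all 25 alternatives. The count of members that differed between the fractions was 8 with K700E and 7 with WT; it was 5 with K700E under a minimum of 1 CPM in all libraries, where PUF60 was not tested, and under the other settings, single libraries left out aside, it was 6 to 8 with K700E and 5 to 8 with WT. Leaving out 1 library gave 4 to 8 with K700E and 4 to 7 with WT, the lowest being without K700E cytoplasm 3 and without WT cytoplasm 1 or 3. DHX15 with K700E was called lower in the cytoplasm with library size alone. For DHX15 with K700E the fraction difference was 0.86 under GC trend correction, against -0.19. That correction moved the median fraction difference of all genes by 0.33 with K700E and 0.38 with WT. The cause for DHX15 was not tested. With a replicate block by number 8 members were called with K700E and 5 with WT, and with one by construct and number 8 and 6. Samples with the same number correlated between -0.249 and 0.427 across groups, and in no pair of groups did every number exceed 0.1, so the numbers were not used to pair samples. Over all genes the fraction counts fell to 7889 with K700E and 7941 with WT at the 1 CPM minimum, for which fewer genes were tested, against 13448 and 13681. K700E against WT and the interaction gave 0 members in every setting run, while over all genes they gave up to 36 genes in the nucleus, 85 in the cytoplasm and 31 for the interaction without a filter on low counts, and DESeq2's Wald test gave 1, 13 and 3, against 0, 1 and 0. The interaction has no fit on only the libraries compared, and the block by construct and number leaves K700E against WT without an estimate. Of the values of single members under alternatives, 1151 kept their side of the threshold and their direction where called, 51 lost and 12 gained a call, and 48 changed sign, 47 of them with no call. The biological coefficient of variation by group was 0.258 in K700E cytoplasm, 0.199 in WT cytoplasm, 0.300 in K700E nuclei and 0.408 in WT nuclei, and only PUF60 had libraries under 50 counts.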
